A study of Citrus sinensis with 36 samples.

Results

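The cell cycle, histone and kinesin genes of sweet orange (Citrus sinensis) fruit were examined in the peel and pulp of 6 varieties. Genes were taken by the protein names in the deposited descriptions: cyclins A, B and D, cyclin-dependent kinases (CDKs) and their inhibitors, kinesins, the histones H1, H2A, H2B, H3 and H4, the DNA replication licensing factors, the proliferating cell nuclear antigen (PCNA) and Aurora kinases, without enzymes that modify histones. This gave 170 of the 29654 genes in the table. The names are matches to proteins of other plants and of a few animals, so that a role given below is that of the named relative and not one shown in orange. The common sweet oranges (CO) were Jincheng, Taoye and Xianfeng, and the Valencia oranges (VO), which ripen later, were Rohde Red Valencia, Delta Valencia and Cutter Valencia. All fruits were harvested at 220 days after flowering (DAF), when per the study's methods CO fruit was mature and VO fruit was turning color. Ripening stage and variety group therefore cannot be told apart. Peel and pulp were dissected by hand from pooled fruits, and each variety and tissue had 3 libraries, which made 36 in all.

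A dividing plant cell builds cyclin-CDK complexes in order. D-type cyclins couple growth and hormone signals to entry into the cycle, A-type cyclins act through DNA synthesis, and B-type cyclins with the plant-specific B-type CDKs act at mitosis. The Kip-related and SIAMESE-related (SMR) inhibitors hold these complexes back, and in Arabidopsis they also accompany the switch from division to endoreduplication, in which DNA is copied without mitosis. New DNA is licensed by the MCM helicase, copied with the PCNA clamp and packed on histones, and the chromosomes are moved by kinesins, motor proteins that walk on microtubules. Many kinesins also work in cells that do not divide, where they carry cargo or arrange the cortical microtubules along which cellulose is laid down. In citrus, cell division in the fruit is largely over early in development, and juice vesicles of the pulp then grow by expansion.

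Values were FPKM, fragments scaled to the length of the gene in kilobases and to the mapped fragments of the library. A library held 14.8 to 18.8 M mapped fragments, of which the cell cycle, histone and kinesin genes took 0.451% to 0.479%. The group difference was VO minus CO on the log2(FPKM + 0.1) scale, with the 3 libraries of a variety averaged, so that a group was 3 varieties. A gene was tested where at least 1 variety had a mean of 0.3 FPKM, and it was called changed at a limma p under 0.05, adjusted over all genes tested. In the sentences below, a set of 3 values is the lowest, the median and the highest of the 9 libraries of a group and tissue. A level with ± is the mean and SD of 3 varieties, and a difference with ± is the log2 difference and its standard error. Exact permutation of 3 varieties against 3 cannot give a p below 0.10, so the calls rest on the spread that limma shares across genes.

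Most of the genes taken here for DNA synthesis and mitosis had low FPKM in these fruits, while histones and a few CDKs had high FPKM. The length in FPKM follows the span of the gene with its introns, so long genes read low beside short ones in this contrast. Of the 170 genes, 13 had no fragment in any library, 50 stayed under 0.3 FPKM in every variety and tissue, 120 could be tested in at least 1 tissue, and 40 exceeded 10 FPKM in a variety. Of 7 A cyclins only 3 could be tested, and the highest of them, the putative cyclin-A3-1 genes Cs8g04640 and Cs3g15600, had means over the 6 varieties of 0.558 FPKM in peel and 0.433 FPKM in pulp and of 0.190 FPKM in peel and 0.516 FPKM in pulp. The 6 MCM subunits, which form the replicative helicase, had means of 0.276 (MCM5) to 0.993 FPKM (MCM2) in peel. PCNA (Cs8g19700), the sliding clamp of DNA polymerase, had 2.43 FPKM in peel and 2.71 FPKM in pulp. Aurora-1 (Cs4g18970), a mitotic kinase, had 0.265 FPKM in peel and 0.0731 FPKM in pulp, and Aurora-3 (orange1.1t00256) had 2.17 FPKM in peel and 2.58 FPKM in pulp. A single B cyclin stood apart: Cs6g18950, named after the rice protein cyclin-B1-2, had 37.2 FPKM in peel and 33.7 FPKM in pulp, while cyclin-B1-4 (Cs2g29280) had 0.297 FPKM in peel and 0.0496 FPKM in pulp.

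Several histones were at high levels, among them histone H3.3 (Cs1g19950, 156 FPKM in peel and 132 FPKM in pulp), the variant that is deposited outside DNA replication, histone H2B.1 (Cs8g18010, 102 FPKM in peel and 134 FPKM in pulp), the linker histone H1 (Cs1g25120, 65.8 FPKM in peel and 96.5 FPKM in pulp) and histone H2A.1 (Cs4g12200, 59.4 FPKM in peel and 64.1 FPKM in pulp). Histone H3.2, the kind that is deposited with DNA synthesis, was given by several genes, of which the highest (orange1.1t03169) had 1.34 FPKM in peel and 1.43 FPKM in pulp. Many histone genes are near copies of each other, and how fragments shared between copies were assigned is not given in the sources used here. Values of single histone genes are therefore uncertain. Among the CDKs, those named F-4 (Cs3g07260, 56.5 FPKM in peel and 62.6 FPKM in pulp) and G-2 (Cs5g06960, 35.5 FPKM in peel and 29.2 FPKM in pulp) were the highest, and the mitotic CDKs B1-2 (Cs6g10590) and B2-2 (Cs3g27820) had 3.47 FPKM in peel and 4.30 FPKM in pulp and 2.36 FPKM in peel and 1.60 FPKM in pulp. The CDK regulatory subunit 2 (Cs8g15450), a small docking protein of CDKs, had 18.4 FPKM in peel and 17.6 FPKM in pulp. All 57 kinesins had fragments, 38 could be tested, and the highest was KIN-13B (Cs1g14980, 42.9 FPKM in peel and 30.5 FPKM in pulp), from a family that shortens microtubules. The next was KIN-5D (Cs8g17660, 19.2 FPKM in peel and 29.9 FPKM in pulp), from the family that slides antiparallel microtubules apart in the spindle. Levels are compared between genes per kilobase of the length in the table, which follows the span of the gene with its introns, so that long genes with many introns read low.

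**Figure D1:**
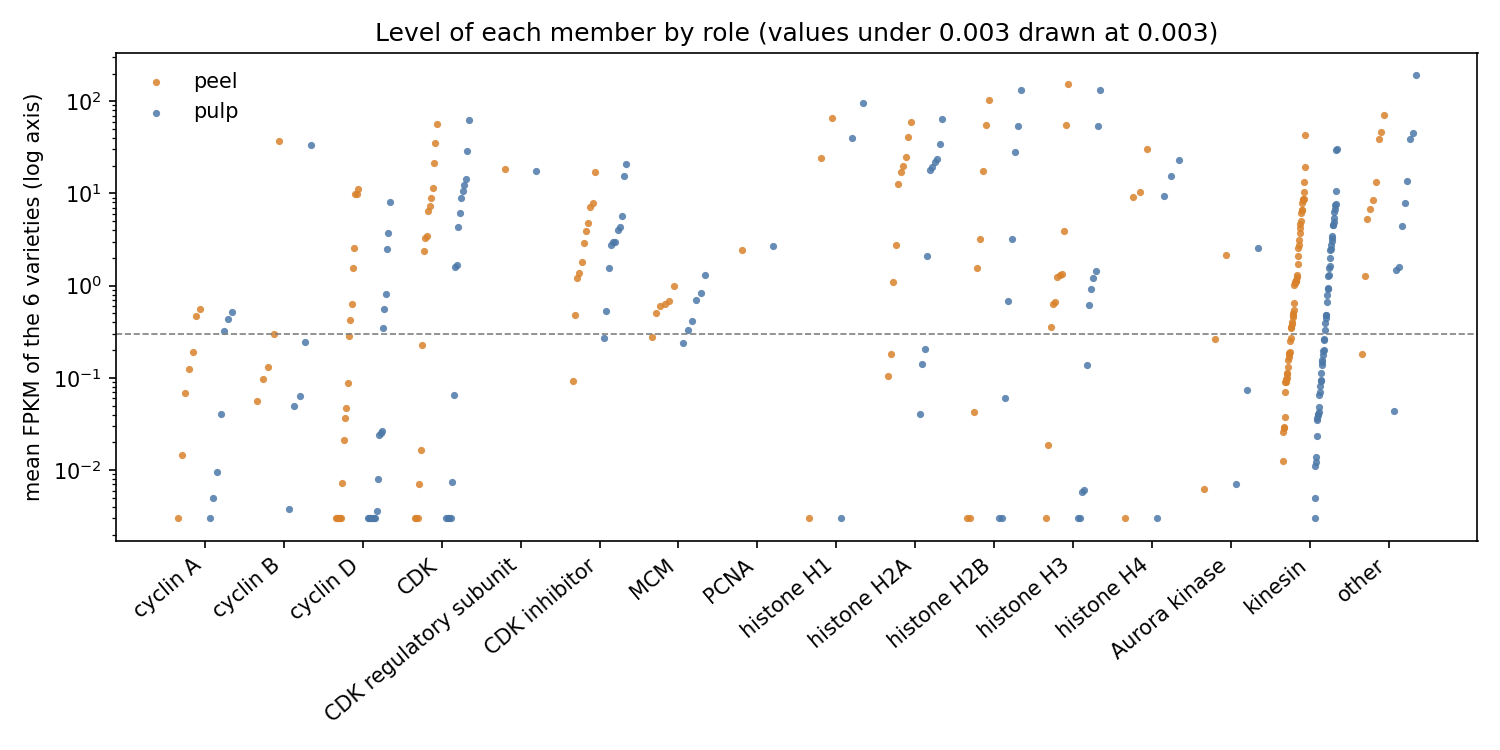
Mean FPKM over the 6 varieties (log axis) of each of the 170 genes by role, in peel (orange) and pulp (blue), with the 0.3 FPKM limit dashed. Histones reach over 100 FPKM, while no A cyclin exceeds 0.558 FPKM and no MCM gene 1.31 FPKM. The length used holds introns, so long genes read low. Means under 0.003 FPKM are drawn at 0.003 FPKM.

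In peel, 10 of 116 tested genes were higher in VO and 5 were lower. Together they were 12.9%, against 20.4% of all 18375 genes tested (13.2% higher and 7.15% lower). The median log2 difference was 0.044 for these genes and 0.046 for all genes. In 39 of the 116 (33.6%) the variety means of VO and CO did not overlap, against 41.7% of all genes. Under median-of-ratios size factors in place of the deposited scaling, 7 were higher and 6 lower, and among all genes 54.1% in place of 64.9% of the calls were higher. Without Rohde Red Valencia 1 was called higher and 2 lower, and without Xianfeng, Cutter Valencia or Jincheng 2 to 3 were called higher and 2 to 3 lower. Without Delta Valencia or Taoye 8 were higher and 5 lower. Calls over all genes fell too, from 2426 higher and 1314 lower to 1055 and 664 without Rohde Red Valencia and 967 and 560 without Xianfeng.

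In pulp, 13 of 107 tested genes were higher in VO and 5 were lower. This was 16.8%, against 19.5% of all 17222 genes tested (12% higher and 7.48% lower), with a median log2 difference of 0.081 against 0.016. The variety means did not overlap in 41 (38.3%), against 42.7% of all genes. Of the 13 that rose, 9 were kinesins. The count higher was 4 without Rohde Red Valencia, 5 without Delta Valencia, 7 without Jincheng and 8 without Xianfeng, against 10 without Cutter Valencia and 14 without Taoye. The count lower was 1 when any single VO variety was left out, 3 without Jincheng and 8 without Xianfeng. Over all genes 2069 were higher and 1289 lower, against 846 and 474 without Rohde Red Valencia and 1953 and 1473 without Xianfeng. Altogether 29 of the cell cycle, histone and kinesin genes were called in at least 1 tissue, and 4 of them in both with the same direction: the CDK inhibitor 3 and SMR3 genes fell, and KIN-7D and KIN-7K rose. For KIN-7D the pulp value passed the filter only through VO. Peel and pulp came from the same fruits, so the tissues are not separate evidence.

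**Figure D2:**
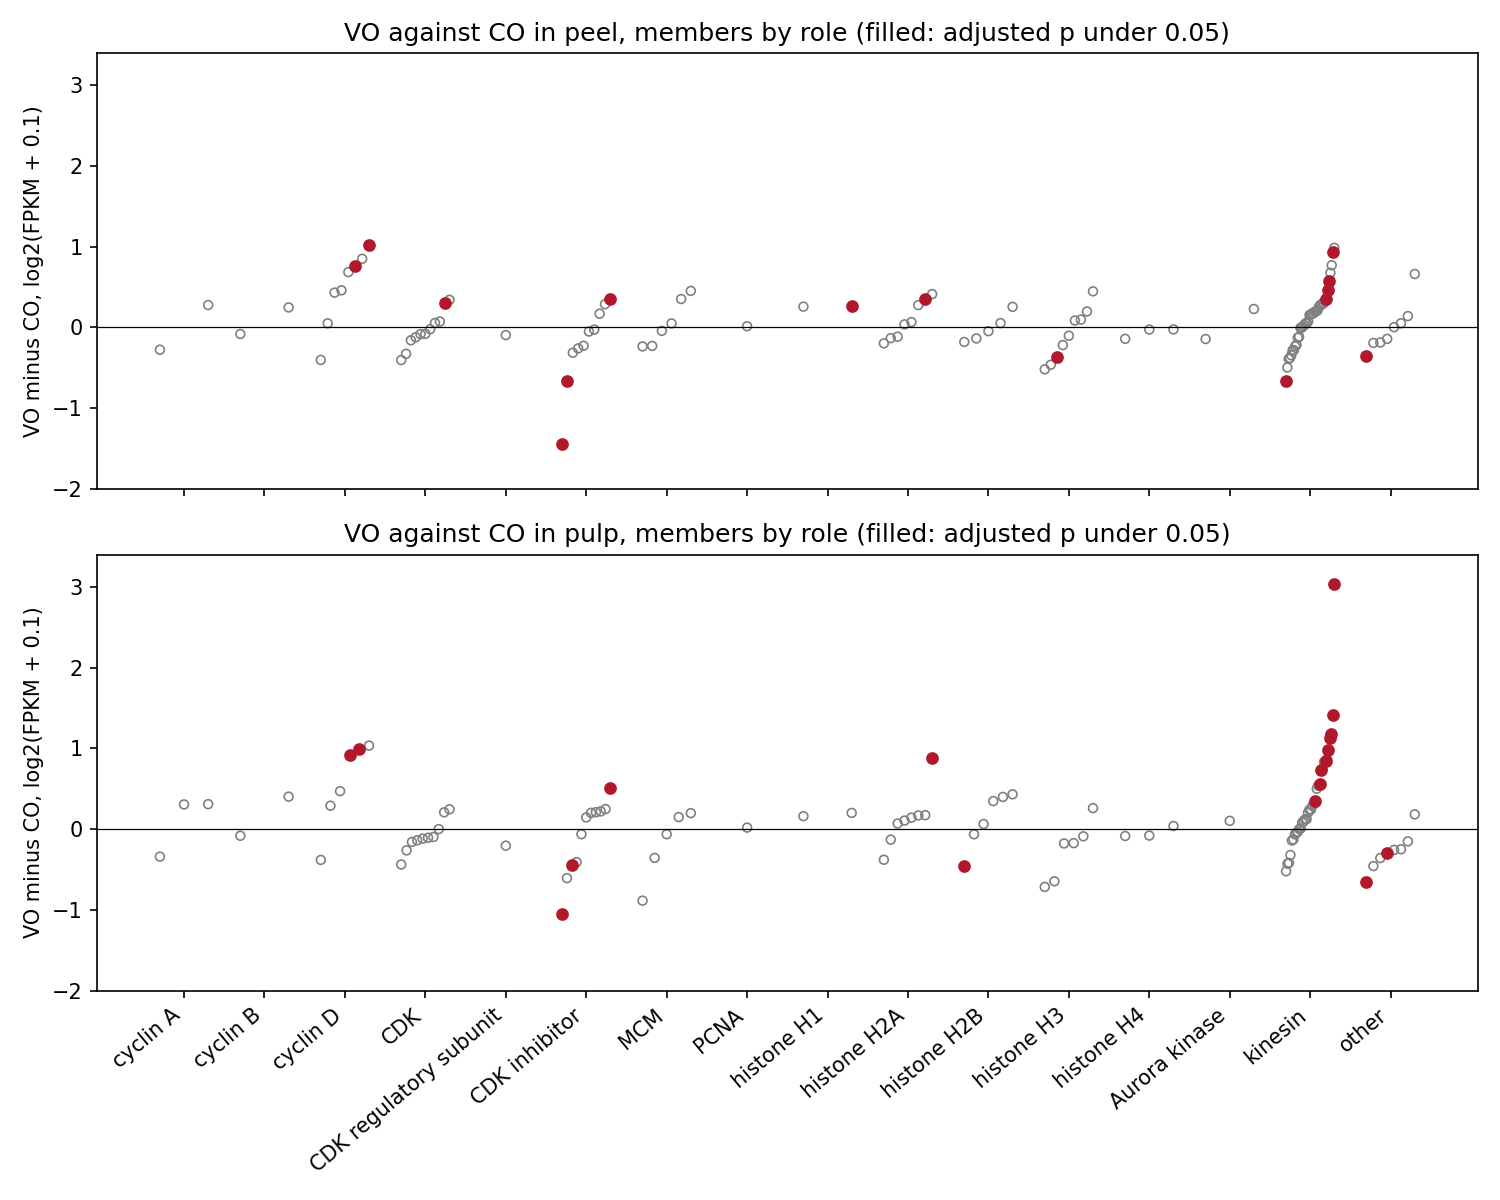
VO minus CO on the log2(FPKM + 0.1) scale for each tested gene by role, in peel (top) and pulp (bottom). Filled points passed an adjusted p under 0.05. The 2 lowest filled points are CDK inhibitors, at -1.45 (SMR3 in peel) and -1.05 (CDK inhibitor 3 in pulp), and the highest is KIN-14T in pulp at 3.04.

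Samples of peel and pulp hold several cell types, and fewer cells of a type cannot be told apart from less RNA per cell in any result below. Genes were listed for cell types by words in the descriptions, such as ketoacyl-CoA synthase, GDSL esterase, cutin and wax ester for epidermis and cuticle. For meristem the words included WUSCHEL and knotted-like homeobox. Such words name protein families, and whether the genes mark a cell type in orange fruit was not tested. The epidermis and cuticle genes moved with the group in pulp. Their summed level per library was 130.6 to 174.1 FPKM in CO pulp and 208.5 to 263.3 FPKM in VO pulp, without overlap. The list held 120 genes, of which 47 could be tested in pulp, with 16 higher and 5 lower in VO (44.7% called, against 19.5% of all genes). In peel the sum was 269.0 to 354.9 FPKM in CO and 258.1 to 274.6 FPKM in VO, with 14 higher and 7 lower of 50 (42.0%, against 20.4% of all genes). Vascular genes summed to 64.06 to 79.95 FPKM in CO pulp and 70.72 to 96.73 FPKM in VO pulp, with 3 higher and none lower of 21 tested (14.3%), and in peel 7 of 25 were higher (28.0%). Meristem genes had 5 higher and 1 lower of 12 in pulp and 5 higher of 11 in peel, and no seed marker was called in pulp (0 of 9, with 1 at an unadjusted p under 0.05). In peel 2 of 6 seed markers were lower in VO (33.3%, against 20.4% of all genes). Their part in the differences below was not tested.

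The D cyclins that were called were higher in VO. In peel 7 of 8 tested had a positive difference and 2 were called (25.0%, against 20.4% of all genes), and in pulp 5 of 6 were positive and 2 were called (33.3%, against 19.5%). Of these 4 calls, 3 were lost when any of 4 or 5 of the 6 varieties was left out. Cyclin-D3-2 (Cs1g22330) was at 6.29, 7.07 and 8.46 FPKM in CO peel and at 9.93, 12.2 and 14.8 FPKM in VO peel. The 9 VO libraries all lay above the 9 CO libraries, with a difference of 0.77 ± 0.11 (adjusted p = 0.00664), which held whichever variety was left out (0.66 to 0.86). In pulp the same gene was at 5.22, 7.08 and 8.28 FPKM in CO pulp and at 7.31, 9.73 and 11.5 FPKM in VO pulp, the groups overlapped, and the difference of 0.47 ± 0.18 (adjusted p = 0.109) did not pass the test. Cyclin-D1-1 (Cs7g08180) was at 1.06, 1.52 and 2.50 FPKM in CO peel and at 2.28, 3.47 and 4.14 FPKM in VO peel. Its libraries overlapped in part, and its difference was 1.03 ± 0.22 (adjusted p = 0.0219). The call was lost when any variety other than Taoye was left out (highest adjusted p = 0.0772). A second gene named cyclin-D1-1 (Cs1g21610) had the highest level of the D cyclins in peel and was at 11.1 ± 1.75 FPKM in CO peel and 11.5 ± 2.24 FPKM in VO peel, a difference of 0.051 ± 0.17 (adjusted p = 0.86).

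In pulp the D cyclins that passed were both named cyclin-D3-1. Cs3g17490 was at 1.60, 2.77 and 3.50 FPKM in CO pulp and at 3.60, 5.09 and 5.90 FPKM in VO pulp, with a difference of 0.91 ± 0.24 (adjusted p = 0.0411). Cs3g23120 was at 0.289, 0.527 and 0.783 FPKM in CO pulp and at 0.792, 1.04 and 1.70 FPKM in VO pulp, where all VO libraries lay above all CO libraries, with a difference of 0.99 ± 0.23 (adjusted p = 0.0282). In peel, where Cs3g23120 was at 6.37, 8.48 and 10.4 FPKM in CO peel and at 8.40, 11.2 and 15.7 FPKM in VO peel, the groups overlapped and the difference was 0.43 ± 0.20 (adjusted p = 0.182). The calls of Cs3g17490 and Cs3g23120 in pulp were lost without Jincheng, Xianfeng or Rohde Red Valencia, the former also without Delta Valencia and the latter without Cutter Valencia (highest adjusted p = 0.137 and 0.0956).

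No A or B cyclin was called in either tissue by limma, none had an unadjusted p under 0.05, and limma-voom on recovered fragments called none. The differences of the best expressed were -0.081 ± 0.11 (adjusted p = 0.631) in peel and -0.083 ± 0.071 (adjusted p = 0.442) in pulp for cyclin-B1-2 (Cs6g18950) and 0.28 ± 0.25 (adjusted p = 0.465) and 0.30 ± 0.24 (adjusted p = 0.398) for cyclin-A3-1 (Cs8g04640). At the lower levels were cyclin-A1-1 (Cs3g20020), at 0.525 ± 0.0745 FPKM in CO peel and 0.422 ± 0.0540 FPKM in VO peel, cyclin-B3-1 (orange1.1t03269), at 0.203 ± 0.0843 FPKM in CO pulp and 0.283 ± 0.0479 FPKM in VO pulp, and cyclin-B1-4 (Cs2g29280), at 0.270 ± 0.0520 FPKM in CO peel and 0.324 ± 0.0401 FPKM in VO peel.

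Among the CDKs, 1 of 11 was called in peel (9.09%, against 20.4% of all genes). In pulp none of 10 was called, against 19.5% of all genes, where 1 had an unadjusted p under 0.05 and limma-voom called none. Genes named cell division control protein 2 homolog, after the main CDK of yeasts, lie outside the searched names and are not counted here. Of these, Cs6g19580 was higher in VO in both tissues, as given further below, and Cs6g07630 was not called in peel. CDKD-1 (orange1.1t00014), a kinase that activates other CDKs, was at 6.56 ± 0.218 FPKM in CO peel and 8.10 ± 0.162 FPKM in VO peel, a difference of 0.30 ± 0.061 (adjusted p = 0.0193). That call was lost without Cutter Valencia, Rohde Red Valencia or Xianfeng (highest adjusted p = 0.0771). The differences of the highest CDKs did not pass the test, at -0.12 ± 0.07 (adjusted p = 0.268) in peel and -0.098 ± 0.086 (adjusted p = 0.45) in pulp for F-4 (Cs3g07260) and 0.056 ± 0.082 (adjusted p = 0.672) and -0.00039 ± 0.073 (adjusted p = 0.998) for G-2 (Cs5g06960). The CDK regulatory subunit 2 (Cs8g15450) had -0.094 ± 0.066 (adjusted p = 0.354) in peel and -0.21 ± 0.076 (adjusted p = 0.104) in pulp.

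The CDK inhibitors held the largest falls. SMR3 (Cs7g21700), a SIAMESE-related inhibitor, was at 8.49, 11.9 and 15.9 FPKM in CO peel and at 3.47, 3.78 and 5.81 FPKM in VO peel. No VO library of peel reached the lowest CO library, and the difference was -1.45 ± 0.17 (adjusted p = 0.00391). It held whichever variety was left out (-1.63 to -1.28) and was the only gene of the 116 in peel that passed a further rule, a log2 difference of at least 1 in the same direction and an adjusted p under 0.05 in each of the 9 pairs of a VO and a CO variety. That rule takes the libraries of a variety as replicates, so its p measures spread within varieties and not among them. In pulp SMR3 was at 15.2, 17.3 and 22.5 FPKM in CO pulp and at 11.3, 12.6 and 15.1 FPKM in VO pulp. The libraries again did not overlap, but the difference was smaller, -0.45 ± 0.12 (adjusted p = 0.0396), and was lost when any variety other than Xianfeng was left out (highest adjusted p = 0.127). CDK inhibitor 3 (Cs5g28010), of the Kip-related kind, was at 4.01, 4.87 and 5.55 FPKM in CO peel and at 2.47, 3.00 and 3.60 FPKM in VO peel. In pulp it was at 3.26, 3.68 and 4.47 FPKM in CO pulp and at 1.39, 1.75 and 2.17 FPKM in VO pulp. VO libraries lay below CO libraries in each tissue, with differences of -0.67 ± 0.097 (adjusted p = 0.00748) in peel and -1.05 ± 0.10 (adjusted p = 0.00208) in pulp, and both calls held whichever variety was left out.

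Other inhibitors rose. SMR9 (Cs2g30340) was at 4.04, 4.61 and 6.13 FPKM in CO pulp and at 5.80, 6.82 and 7.53 FPKM in VO pulp. The highest CO library (Jincheng) lay within the VO range, the difference was 0.51 ± 0.083 (adjusted p = 0.00954), and the call held whichever variety was left out. CDK inhibitor 6 (Cs1g22780), the highest inhibitor in both tissues, was at 14.9 ± 1.37 FPKM in CO peel and 18.9 ± 0.331 FPKM in VO peel, a difference of 0.35 ± 0.078 (adjusted p = 0.0256). This call was lost when any variety other than Xianfeng was left out (highest adjusted p = 0.0843). In pulp its difference was 0.20 ± 0.20 (adjusted p = 0.507). The second gene named CDK inhibitor 3 (orange1.1t03197) was at 2.76 ± 0.182 FPKM in CO pulp and 3.24 ± 0.182 FPKM in VO pulp and was not called in either tissue. By count, 1 inhibitor rose and 2 fell of 10 tested in peel, and 1 rose and 2 fell of 11 in pulp. That is 30.0% called in peel and 27.3% in pulp, against 20.4% and 19.5% of all genes.

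No MCM gene and not PCNA passed the test. None of the 6 MCM genes tested in peel or the 5 in pulp was called, none had an unadjusted p under 0.05, and the same held for PCNA, with limma-voom calling none either. MCM2 (Cs5g21760) differed by -0.23 ± 0.26 (adjusted p = 0.571) in peel and 0.20 ± 0.31 (adjusted p = 0.679) in pulp, MCM4 (Cs8g08340) by 0.05 ± 0.21 (adjusted p = 0.89) and -0.36 ± 0.20 (adjusted p = 0.256), and PCNA (Cs8g19700) by 0.015 ± 0.13 (adjusted p = 0.949) and 0.018 ± 0.15 (adjusted p = 0.942). Variety differences were seen inside a group: MCM5 (Cs4g01350) had 0.998, 1.15 and 1.18 FPKM in the 3 Xianfeng pulp libraries, against 0.0828 to 0.319 FPKM in the other 15 pulp libraries. MCM5 was singled out after its values were seen. It is among the 5 MCM genes tested in pulp, where Xianfeng alone lay well above the 0.3 FPKM limit, so its pulp value is a description. On the list of other cell division genes, described further below, DNA ligase 1 (Cs8g15660), which joins the pieces of new DNA, and replication factor C subunit 3 (Cs3g19870), part of the loader of PCNA, were higher in VO pulp. Their differences were 0.48 ± 0.09 (adjusted p = 0.0149) and 0.30 ± 0.063 (adjusted p = 0.0222), and they too were singled out after their values were seen. Aurora-3 (orange1.1t00256) differed by 0.23 ± 0.13 (adjusted p = 0.258) in peel and 0.10 ± 0.09 (adjusted p = 0.455) in pulp, and Aurora-1 (Cs4g18970) by -0.14 ± 0.24 (adjusted p = 0.71) in peel.

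Of the histones, 2 rose and 1 fell of 27 tested in peel, and 1 rose and 1 fell of 25 in pulp. That is 11.1% called in peel and 8.0% in pulp, against 20.4% and 19.5% of all genes. In peel, histone H2A.4 (Cs6g05830) was at 17.2 ± 1.24 FPKM in CO peel and 22.1 ± 0.342 FPKM in VO peel, a difference of 0.36 ± 0.067 (adjusted p = 0.0155), and the linker histone H1.2 (Cs5g30230) was at 21.9 ± 0.648 FPKM in CO peel and 26.4 ± 1.97 FPKM in VO peel, a difference of 0.27 ± 0.07 (adjusted p = 0.042). The second H3.3 gene (Cs3g25740) was at 62.5 ± 1.23 FPKM in CO peel and 48.7 ± 3.81 FPKM in VO peel and fell, with -0.36 ± 0.074 (adjusted p = 0.0197). In pulp, the H2A variant 1 (Cs5g30530) was at 1.05, 1.46 and 1.63 FPKM in CO pulp and at 1.93, 2.80 and 4.34 FPKM in VO pulp, with a difference of 0.89 ± 0.22 (adjusted p = 0.0364). Histone H2B.4 (Cs6g05810) was at 52.8, 59.2 and 72.5 FPKM in CO pulp and at 41.4, 46.3 and 51.0 FPKM in VO pulp. Its VO libraries all lay below the CO libraries, and the difference was -0.45 ± 0.11 (adjusted p = 0.0312). Each of these 5 histone calls was lost without 3 or more of the varieties, those of H1.2 and of the H2A variant 1 whichever variety was left out, those of H2A.4 and H3.3 without Jincheng, Rohde Red Valencia or Xianfeng (H2A.4 also without Cutter Valencia), and that of H2B.4 when any variety other than Taoye was left out, with highest adjusted p of 0.123 (H1.2), 0.0627 (H2A.4), 0.0762 (H3.3), 0.101 (H2A variant 1) and 0.113 (H2B.4). The H1.2 call was also absent under size factors and under TPM.

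Among the most abundant histones, several did not pass the test. Histone H3.3 (Cs1g19950) had -0.10 ± 0.077 (adjusted p = 0.389) in peel and -0.17 ± 0.12 (adjusted p = 0.329) in pulp, H2B.1 (Cs8g18010) -0.046 ± 0.084 (adjusted p = 0.735) and -0.064 ± 0.072 (adjusted p = 0.557), H1 (Cs1g25120) 0.26 ± 0.16 (adjusted p = 0.287) and 0.20 ± 0.11 (adjusted p = 0.23), and H2A.1 (Cs4g12200) -0.11 ± 0.062 (adjusted p = 0.24) and 0.069 ± 0.06 (adjusted p = 0.445). The same held for H2AX (Cs3g13120), which marks DNA breaks when phosphorylated, with -0.20 ± 0.10 (adjusted p = 0.228) in peel, for the H2A variant 3 (Cs1g13340), with 0.11 ± 0.074 (adjusted p = 0.343) in pulp, and for the H4 genes Cs8g18120, with -0.025 ± 0.069 (adjusted p = 0.833) and -0.081 ± 0.069 (adjusted p = 0.441), and Cs8g17690, with -0.14 ± 0.11 (adjusted p = 0.399) and -0.086 ± 0.071 (adjusted p = 0.422).

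The kinesins, the role with the most members, had the most calls by number, and in pulp every call was a rise. Of 34 kinesins tested in pulp 9 were higher in VO and none was lower (26.5% higher, with 14 at an unadjusted p under 0.05 in either direction), beside 12% of all genes. Their median log2 difference was 0.241. The count higher was 9 under size factors and 9 of 46 under TPM, where KIN-14A was no longer among them, and limma-voom called 12 higher and 1 lower. When Delta Valencia or Rohde Red Valencia was left out, 3 of the 9 calls were kept (KIN-14T, KIN-14N and KIN-7N), and when any other variety was left out 6 to 8 were kept. In peel 4 were higher and 1 lower of 38, with a median of 0.156. That is 13.2% called and 10.5% higher, against 20.4% and 13.2% of all genes. The summed level of all 57 was 117.8, 122.1 and 158.4 FPKM in CO pulp and 157.2, 175.9 and 179.2 FPKM in VO pulp (lowest, median and highest library). The ranges met at their ends, where the highest CO library lay just above the lowest VO library. These rises ran beside the higher sum of epidermis and cuticle genes in VO pulp given above, and the part of that was not tested.

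KIN-14T (Cs9g03490) had the largest difference between VO and CO among the 170 genes. The KIN-14 family, which walks toward microtubule minus ends in the members studied, is enlarged in plants. KIN-14T was at 0.122, 0.248 and 0.361 FPKM in CO pulp and at 1.22, 3.19 and 4.18 FPKM in VO pulp. Cutter Valencia was the lowest VO variety, at a mean of 1.29 FPKM, against 4.03 FPKM in Delta Valencia and 3.3 FPKM in Rohde Red Valencia, and all were above the CO varieties (0.158 to 0.304 FPKM). The difference was 3.04 ± 0.42 (adjusted p = 0.00569), on a scale that understates changes at such low levels, and held whichever variety was left out (2.73 to 3.51). In peel KIN-14T was at 0.334, 0.609 and 0.783 FPKM in CO peel and at 0.531, 0.708 and 0.996 FPKM in VO peel, and the difference was 0.33 ± 0.25 (adjusted p = 0.384). KIN-14N (Cs4g12270) was at 0.277, 0.362 and 0.531 FPKM in CO pulp and at 0.994, 1.11 and 1.55 FPKM in VO pulp. All VO libraries lay above all CO libraries, and the difference of 1.41 ± 0.17 (adjusted p = 0.00379) held whichever variety was left out. In peel KIN-14N was at 0.365, 0.778 and 0.894 FPKM in CO peel and at 1.1, 1.23 and 2.25 FPKM in VO peel, also without overlap, but the difference of 0.99 ± 0.28 (adjusted p = 0.0532) just missed the threshold. Only KIN-14T and KIN-14N passed the rule over all 9 variety pairs in pulp.

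The other 7 kinesins called in pulp were KIN-7N, KIN-7E, KIN-14I, KIN-12C, KIN-7D, KIN-7K and KIN-14A. Of these, KIN-14I, KIN-12C, KIN-7K and KIN-14A, like KIN-UA below, fall outside the rule for named genes and were chosen after their values were seen. KIN-7N (Cs8g13280) was at 2.07, 2.28 and 2.48 FPKM in CO pulp and at 3.29, 3.91 and 4.34 FPKM in VO pulp, with no overlap and a difference of 0.73 ± 0.10 (adjusted p = 0.00616) that held whichever variety was left out. KIN-7E (Cs8g08730) was at 2.09, 2.85 and 4.21 FPKM in CO pulp and at 5.44, 6.89 and 7.85 FPKM in VO pulp, with a difference of 1.13 ± 0.23 (adjusted p = 0.0194). The KIN-7 family contains the relatives of the centromere motor CENP-E of animals and several plant members with work outside mitosis. KIN-14I (Cs5g33590) was at 3.60, 4.60 and 5.39 FPKM in CO pulp and at 6.03, 8.75 and 9.38 FPKM in VO pulp, with a difference of 0.85 ± 0.16 (adjusted p = 0.0154). KIN-12C (Cs9g01520), from the family that works in the phragmoplast, the structure that builds the new wall in dividing cells, was at 0.390, 0.641 and 0.689 FPKM in CO pulp and at 1.04, 1.15 and 1.60 FPKM in VO pulp, with a difference of 0.97 ± 0.18 (adjusted p = 0.0129). KIN-7E, KIN-14I and KIN-12C had no overlap between the groups and lost their calls without Delta Valencia or Rohde Red Valencia (highest adjusted p = 0.0768, 0.0662 and 0.0636).

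The remaining calls in pulp were smaller or lay at low levels. KIN-7D passed the 0.3 FPKM limit in pulp only through Delta Valencia and Rohde Red Valencia, so its pulp value is a description, and 8 of the 9 kinesin rises do not depend on that. KIN-7D (Cs8g08430) was at 0.116 ± 0.0187 FPKM in CO pulp and 0.399 ± 0.126 FPKM in VO pulp, a difference of 1.18 ± 0.29 (adjusted p = 0.0347), and at 0.760 ± 0.106 FPKM in CO peel and 1.55 ± 0.297 FPKM in VO peel, a difference of 0.94 ± 0.19 (adjusted p = 0.0189). KIN-7K (orange1.1t02207) had 0.56 ± 0.13 (adjusted p = 0.0325) in pulp and 0.58 ± 0.11 (adjusted p = 0.0171) in peel, and KIN-14A (Cs1g20350) had 0.35 ± 0.089 (adjusted p = 0.0382) in pulp. The pulp calls of KIN-7D and KIN-7K were lost without Delta Valencia, Jincheng, Rohde Red Valencia or Xianfeng (KIN-7D also without Taoye), and that of KIN-14A whichever variety was left out, with highest adjusted p of 0.137, 0.117 and 0.137. In peel the calls of KIN-7D and KIN-7K were lost without Cutter Valencia, Rohde Red Valencia or Xianfeng, and that of KIN-7K also without Jincheng (highest adjusted p = 0.0717 and 0.0655).

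The other kinesins called in peel were KIN-7H, KIN-UA and KIN-14J. KIN-7H (Cs1g25050) was at 6.33, 7.0 and 8.20 FPKM in CO peel and at 8.82, 10.1 and 11.6 FPKM in VO peel, without overlap, a difference of 0.47 ± 0.10 (adjusted p = 0.0238). KIN-UA (Cs5g09730), a kinesin with armadillo repeats, was at 4.38 ± 0.176 FPKM in CO peel and 5.62 ± 0.517 FPKM in VO peel, a difference of 0.35 ± 0.09 (adjusted p = 0.038). KIN-14J (Cs5g03560) was at 5.16 ± 0.858 FPKM in CO peel and 3.19 ± 0.413 FPKM in VO peel and fell, with -0.67 ± 0.15 (adjusted p = 0.026). These calls were lost without 4 to 5 of the 6 varieties, always including Jincheng, Rohde Red Valencia and Xianfeng, with highest adjusted p of 0.0676, 0.123 and 0.0848.

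KIN-5D (Cs8g17660), the second most abundant kinesin, varied within CO in pulp. Its pulp libraries were at 16.5, 16.3 and 14.9 FPKM in Jincheng, 14.3, 14.6 and 14.1 FPKM in Xianfeng and 38.4, 37.9 and 39.0 FPKM in Taoye. The VO libraries were at 31.6 to 42.6 FPKM, so that Taoye lay inside the VO range while the other CO varieties lay at less than 17 FPKM. The difference between the groups was 0.83 ± 0.36 (adjusted p = 0.151), which did not pass the test. With a single variety left out it ranged from 0.57 to 1.28, the highest being without Taoye, the variety seen to lie apart. In peel KIN-5D was at 16.5, 21.4 and 23.5 FPKM in CO peel and at 16.2, 17.8 and 19.4 FPKM in VO peel, and the Taoye mean of 23.2 FPKM was again the highest of the 6 varieties. The other highly expressed kinesin, KIN-13B (Cs1g14980), had -0.0054 ± 0.11 (adjusted p = 0.979) in peel and 0.29 ± 0.09 (adjusted p = 0.0662) in pulp.

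**Figure D3:**
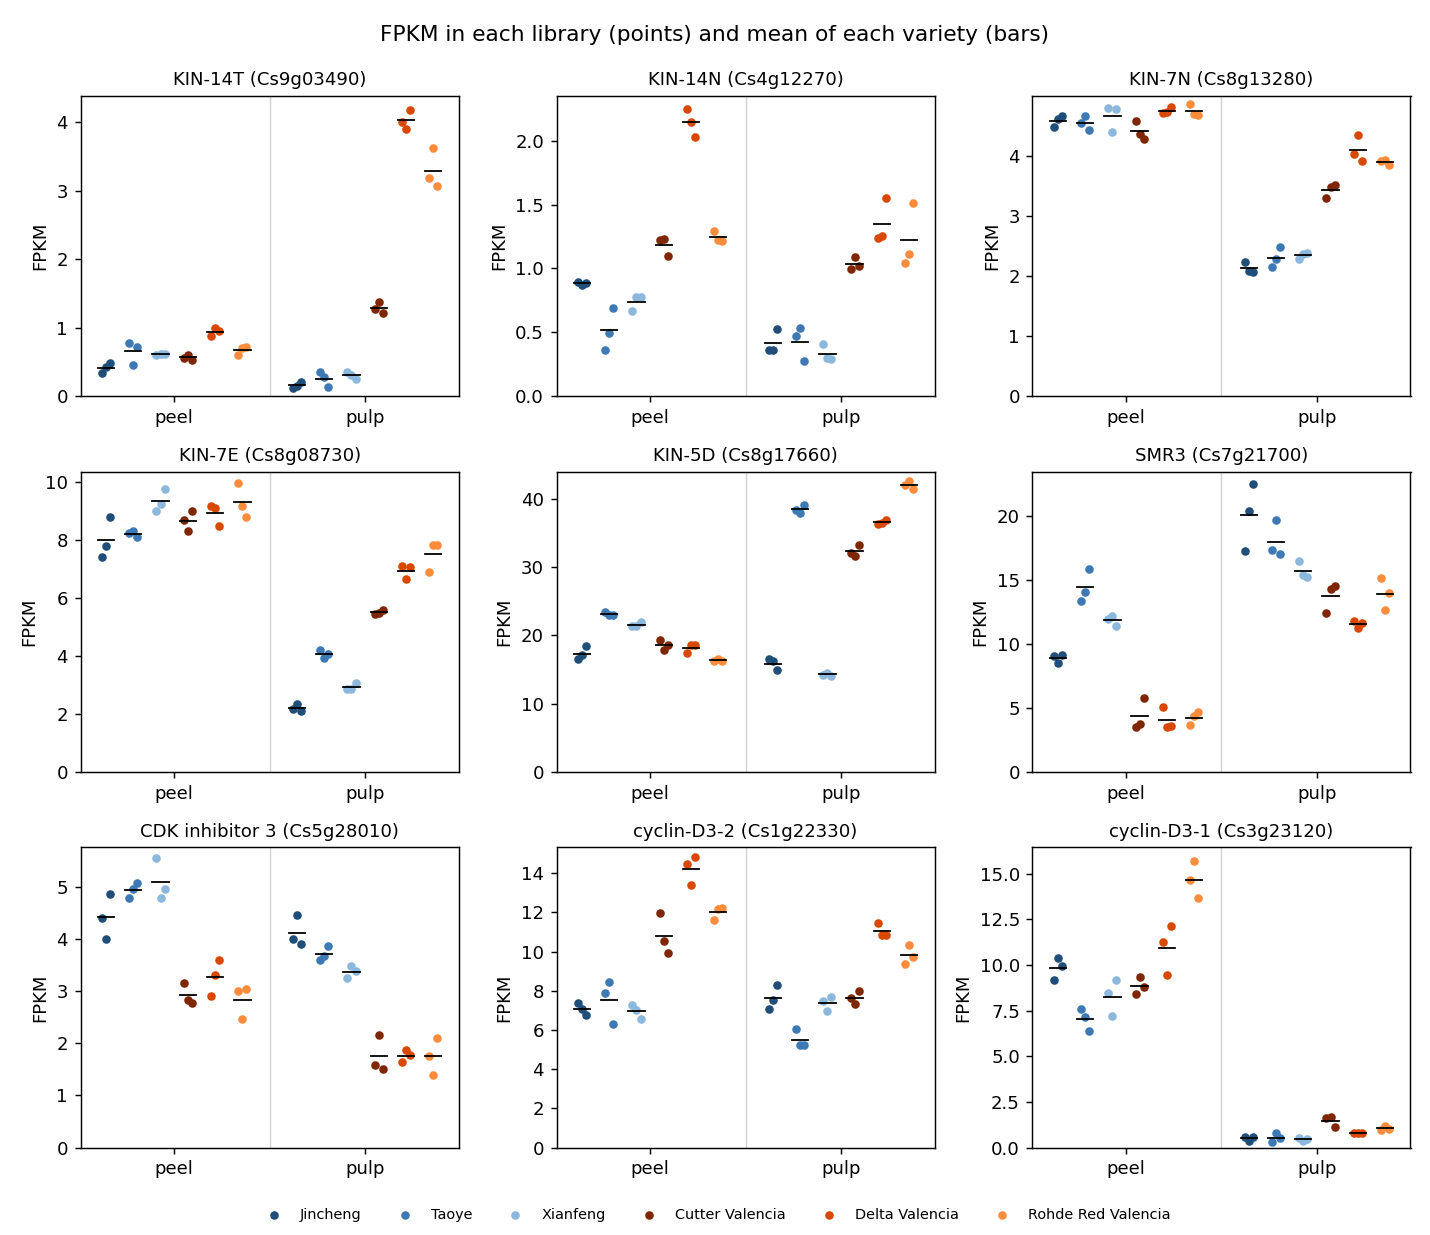
FPKM of 9 genes in each of the 36 libraries (points, colored by variety, blue shades for CO and orange shades for VO) with the variety means as bars, peel on the left and pulp on the right of each panel. In pulp the VO libraries of KIN-14T reach 4.18 FPKM while CO libraries stay at or below 0.361 FPKM, and for KIN-5D the 3 Taoye libraries lie with the VO libraries.

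In all, 9 genes carried the searched words without being a cyclin, CDK, histone or kinesin motor, and none of them rose. Calcyclin-binding protein (Cs2g03360), which only shares letters with cyclin B, was at 80.3 ± 5.64 FPKM in CO peel and 63.1 ± 6.17 FPKM in VO peel, a difference of -0.35 ± 0.095 (adjusted p = 0.0458). The cyclin-D-binding Myb-like factor 1 (Cs2g10330) was at 13.1, 16.8 and 20.6 FPKM in CO pulp and at 9.73, 10.4 and 12.3 FPKM in VO pulp, with no overlap and a difference of -0.66 ± 0.14 (adjusted p = 0.0212). KINESIN LIGHT CHAIN-RELATED 2 (Cs5g29910) was at 8.68 ± 0.694 FPKM in CO pulp and 7.05 ± 0.175 FPKM in VO pulp, a difference of -0.29 ± 0.082 (adjusted p = 0.0495), and KINESIN LIGHT CHAIN-RELATED 1 (Cs5g01870), the most abundant of these proteins that follow the cortical microtubules in Arabidopsis, had 0.003 ± 0.076 (adjusted p = 0.983) in peel and -0.15 ± 0.077 (adjusted p = 0.202) in pulp. The Myb-like call was lost when any VO variety was left out (highest adjusted p = 0.0779), the calcyclin-binding call when any variety other than Delta Valencia was left out and the light chain call when any variety other than Xianfeng was left out (highest adjusted p = 0.145 and 0.163).

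Genes beyond these families were followed through a list of 209 other genes of cell division and microtubules, gathered by words in the description field. In peel 13 were higher and 4 lower of 165 tested (10.3%, against 20.4% of all genes), and in pulp 18 were higher and 4 lower of 150 (14.7%, against 19.5%). The search also took in Protease HtpX homolog 2 (Cs2g25310), whose name holds none of the words and which is 1 of the 4 lower in peel. Tubulins, the subunits of microtubules, made up 4 of the 13 rises in peel and 8 of the 18 in pulp, with none falling among the 15 tested in each tissue and medians of 0.244 and 0.421. The tubulins and the genes below were singled out after their values were seen. Some of the rises counted in peel passed the 0.3 FPKM limit only through VO and are descriptions. Among them were patellin-3 (Cs1g19390), at 0.039 FPKM in CO peel and 0.705 FPKM in VO peel, and the 65-kDa microtubule-associated protein 8 (Cs7g10630), at 0.112 FPKM and 0.426 FPKM. Tubulin alpha chain Cs8g03680 was at 71.5 ± 14.2 FPKM in CO pulp and 187 ± 46.2 FPKM in VO pulp, a difference of 1.37 ± 0.22 (adjusted p = 0.00955), and tubulin beta-1 chain Cs6g16900 was at 23.1 ± 1.34 FPKM in CO peel and 54.4 ± 6.19 FPKM in VO peel, a difference of 1.23 ± 0.097 (adjusted p = 0.00164). The microtubule-bundling protein MAP65-1 (Cs4g09670) was at 15.3 ± 0.255 FPKM in CO peel and 27.8 ± 0.918 FPKM in VO peel, a difference of 0.86 ± 0.054 (adjusted p = 0.000794). The gene named cell division control protein 2 homolog (Cs6g19580), the name of the main CDK of yeasts, was at 10.3 ± 0.453 FPKM in CO peel and 14.7 ± 0.117 FPKM in VO peel and at 9.14 ± 0.531 FPKM in CO pulp and 13.2 ± 1.62 FPKM in VO pulp, with differences of 0.50 ± 0.058 (adjusted p = 0.00383) and 0.52 ± 0.11 (adjusted p = 0.0205). Among the falls, the sister chromatid cohesion protein DCC1 (Cs1g02740) was at 7.36 ± 0.924 FPKM in CO pulp and 3.17 ± 0.555 FPKM in VO pulp, a difference of -1.20 ± 0.15 (adjusted p = 0.004).

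Between tissues, 75.0% of these genes differed. Comparing pulp with peel within each of the 6 varieties, 30 were higher in pulp, 60 were lower and 30 were not called, of 120 tested. A gene could enter through either tissue, and of the 120, 116 passed the 0.3 FPKM filter in peel and 107 in pulp. A gene that passed in a single tissue could hardly read other than lower in the other, so such directions are descriptions. The share among all genes was 72.5% of 18838 genes (22.4% higher and 50.1% lower), and the median log2 difference was -0.206 against -0.225. The split depended on the scaling: under size factors 41 were higher and 46 lower, with medians of -0.048 for these genes and -0.052 for all genes, and under TPM, with 144 tested, 20 were higher and 85 lower, with medians of -0.478 and -0.397. Differences near those medians therefore carry no direction of their own.

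**Figure D4:**
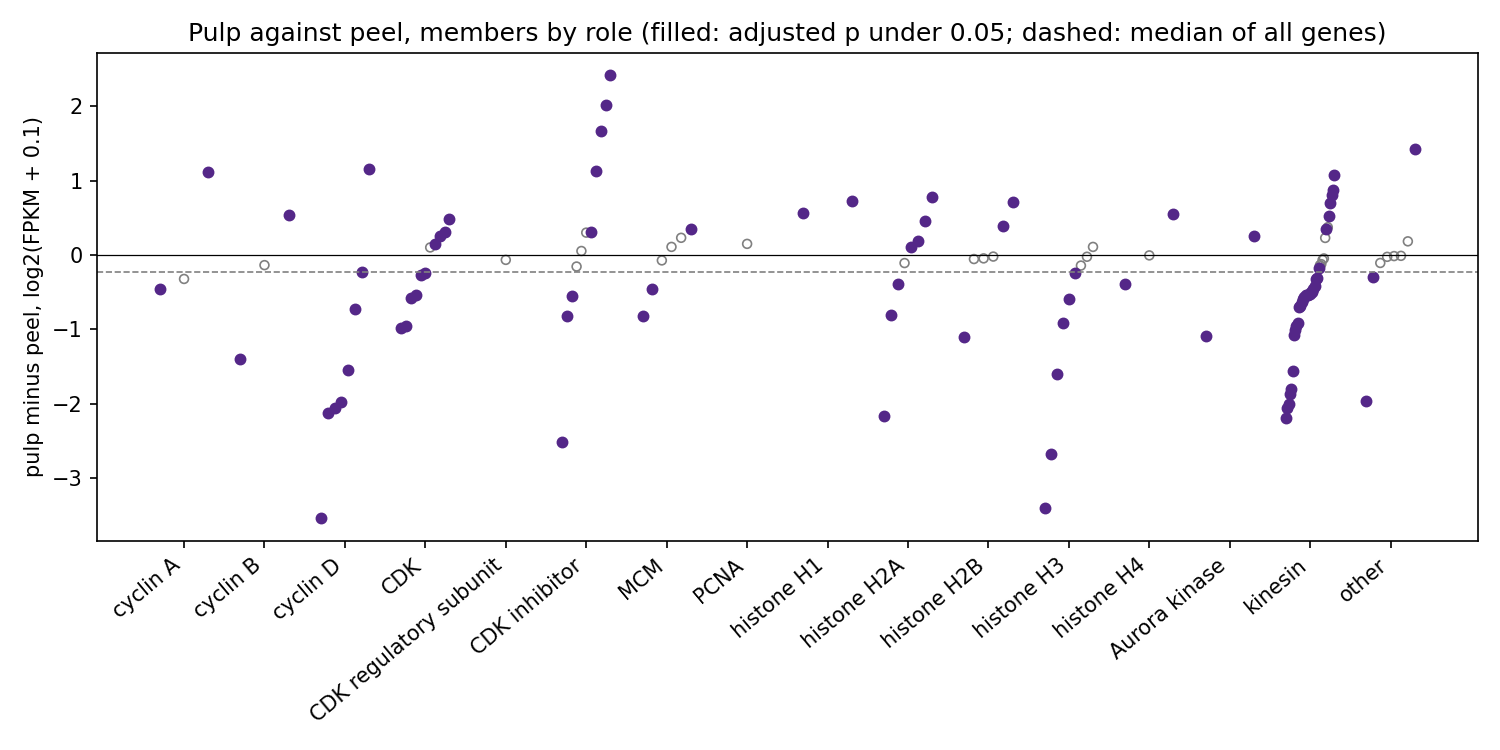
Pulp minus peel on the log2(FPKM + 0.1) scale for each of the 120 tested genes by role, with the median of all genes (-0.225) dashed. Filled points passed an adjusted p under 0.05. The D cyclins reach from -3.54 to 1.16, and the CDK inhibitors from -2.52 to 2.42.

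The D cyclins were lower in pulp in 7 of 8 cases (6 of 8 under size factors and 9 of 11 under TPM), with a median of -1.76. That is 87.5% lower, beside 50.1% of all genes. All 8 passed the filter in peel but only 6 in pulp, so the direction of those that entered through peel alone is a description. Cyclin-D3-1 (Cs3g23120) had 9.94 FPKM in peel and 0.812 FPKM in pulp, a difference of -3.54 ± 0.16 (adjusted p = 4.52e-06), and Cs3g17490, of the same name, had 1.55 FPKM in peel and 3.73 FPKM in pulp, a difference of 1.16 ± 0.12 (adjusted p = 0.000138) and the only D cyclin that was higher in pulp. The inhibitors moved both ways, with 5 of 11 higher and 3 lower (45.5% and 27.3%, against 22.4% and 50.1% of all genes). The SMR3 gene Cs6g06240 had 0.480 FPKM in peel and 2.94 FPKM in pulp, a difference of 2.42 ± 0.11 (adjusted p = 4.71e-06), SMR9 (Cs2g30340) had 1.36 FPKM in peel and 5.75 FPKM in pulp, a difference of 2.02 ± 0.12 (adjusted p = 1.06e-05), and the SMR3 gene Cs7g21700 had 7.97 FPKM in peel and 15.5 FPKM in pulp, a difference of 1.12 ± 0.11 (adjusted p = 9.80e-05). CDK inhibitor 7 (Cs8g05740) had 1.82 FPKM in peel and 0.268 FPKM in pulp, a difference of -2.52 ± 0.15 (adjusted p = 1.07e-05).

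Genes on the cell type lists also differed between the tissues. Of the epidermis and cuticle genes 36 of 59 were lower in pulp and 16 higher (median -0.821), of the vascular genes 17 of 26 were lower and 3 higher (median -0.806), and of the seed genes 5 of 9 were higher and 1 lower (median 0.626). The shares lower were 61.0%, 65.4% and 11.1%, against 50.1% of all genes. The shares higher were 27.1%, 11.5% and 55.6%, against 22.4%. The part of these lists in the tissue differences described here was not tested.

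Kinesins were lower in pulp in 26 of 38 cases and higher in 6 (21 and 8 under size factors, and 35 and 4 of 52 under TPM), with a median of -0.512. That is 68.4% lower and 15.8% higher, against 50.1% and 22.4% of all genes. KIN-14K (Cs7g26720) had the largest of the kinesin differences, with 1.23 FPKM in peel and 0.203 FPKM in pulp, a difference of -2.19 ± 0.13 (adjusted p = 9.94e-06). All 38 passed the filter in peel, and 34 passed it in pulp. Both H1 histones were higher in pulp, by 0.56 ± 0.098 (adjusted p = 0.0016) (Cs1g25120) and 0.73 ± 0.042 (adjusted p = 1.03e-05) (Cs5g30230), and remained so under both other scalings. Of 9 H3 genes 6 were lower (66.7%, against 50.1% of all genes) and none higher under the deposited scaling, while under size factors 4 were lower and 2 higher. All 9 passed the filter in peel but only 6 in pulp. Histone H3 gene Cs8g19440 was listed at 0 in all 18 pulp libraries and at 0 to 2.99 FPKM in peel, so no fold is given. Histone H2A gene Cs8g18050 had 1.09 FPKM in peel and 0.204 FPKM in pulp, a difference of -2.16 ± 0.18 (adjusted p = 4.94e-05). Calcyclin-binding protein (Cs2g03360) was the most abundant gene described here in pulp, with 71.7 FPKM in peel and 192 FPKM in pulp and a difference of 1.43 ± 0.07 (adjusted p = 5.75e-06). All 10 tissue differences of the genes singled out by size kept their calls whichever variety was left out and under every other setting tried. These genes were picked for large called differences in the same data, so this is no separate evidence. They include Cs8g19440, which entered the test only through peel.

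The group difference itself changed with the tissue in 6 of 120 genes, 5 with the larger VO minus CO value in pulp and 1 with the larger value in peel (5.0%, against 7.05% of all genes, 3.81% and 3.24% in the 2 directions). Of the 6, 5 were kinesins (13.2% of the 38 kinesins tested). Genes on the epidermis and cuticle list changed in the same direction, with 9 of 59 larger in pulp and none in peel (15.3% called, median 0.278), and their part was not tested. KIN-14T (Cs9g03490) differed between tissues by 2.71 ± 0.32 (adjusted p = 0.0118), and this held whichever variety was left out (highest adjusted p = 0.04997). KIN-7N (Cs8g13280) was at 4.39, 4.62 and 4.79 FPKM in CO peel and at 4.29, 4.70 and 4.86 FPKM in VO peel, where the groups overlapped, beside the rise in pulp given above, and the change of its group difference was 0.71 ± 0.11 (adjusted p = 0.0203). KIN-7E (Cs8g08730) was at 7.43, 8.33 and 9.77 FPKM in CO peel and at 8.32, 9.01 and 9.97 FPKM in VO peel, again with overlap, and the change was 1.05 ± 0.22 (adjusted p = 0.041).

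KIN-14K (Cs7g26720) had differences of opposite sign, neither of which was called alone. It was at 0.987, 1.38 and 1.76 FPKM in CO peel and at 0.762, 1.06 and 1.36 FPKM in VO peel, and at 0.0764, 0.112 and 0.157 FPKM in CO pulp and at 0.210, 0.281 and 0.389 FPKM in VO pulp. Its group differences were -0.38 ± 0.17 (adjusted p = 0.173) in peel and 0.87 ± 0.25 (adjusted p = 0.0522) in pulp, and the change between them was 1.25 ± 0.25 (adjusted p = 0.0368). In pulp KIN-14K passed the 0.3 FPKM limit only through VO, so its pulp value is a description. KIN-7H (Cs1g25050) was higher in VO in peel and was at 1.75, 2.28 and 3.10 FPKM in CO pulp and at 1.35, 1.63 and 1.84 FPKM in VO pulp, a difference of -0.52 ± 0.16 (adjusted p = 0.0619) in pulp and a change of -0.99 ± 0.20 (adjusted p = 0.0364). For SMR3 (Cs7g21700), whose fall was larger in peel, the change was 1.00 ± 0.22 (adjusted p = 0.0459). Apart from KIN-14T, these changes were each lost without 4 to 5 of the 6 varieties, always including Cutter Valencia, Delta Valencia, Rohde Red Valencia and Xianfeng, with highest adjusted p of 0.0807 (KIN-7N), 0.136 (KIN-7E), 0.132 (KIN-14K), 0.114 (KIN-7H) and 0.143 (SMR3).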

How the data were processed

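Poly(A) RNA of hand-dissected peel and pulp from 6 varieties was sequenced in 36 libraries. The submitters' processing notes name TopHat2, RSEM and DESeq (version 1.10.1) without their roles, and the genome build is not given in the sources used here. The authors deposited FPKM values with a length and a description for each gene. The sample records write SO for VO varieties, and the paper and the records differ in the number of trees pooled for a library. FPKM times length fell on whole fragments (100% within 0.02), which gave each library's mapped fragments. Precision is limited by the 3 varieties per group and, for low genes, by fragment counts.

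The genes were chosen by words in the descriptions, and the gene lists were chosen with earlier results of these data known. Named genes were, in each role and tissue, the 2 with the highest mean and the 2 with the largest called difference among those with at least 1 FPKM in the higher group, the 5 largest tissue differences in each direction, and up to 10 genes whose group difference changed with tissue. Genes with a variety mean of at least 0.3 FPKM were tested on log2(FPKM + 0.1) in limma (version 3.58.1, R 4.3.3) using its trend option, and p-values were adjusted by Benjamini-Hochberg across every gene in the fit. For tissues, peel was subtracted from pulp within a variety. Alternatives changed the pseudocount (0.01 and 1), the filter (none and 1 FPKM), the scaling, the replicate unit, the tool (limma-voom on fragments) and the varieties or libraries used. The fits were tested on simulated data. RefSeq gene spans (assembly DVS_A1.0, 120 of 170 genes matched) served to see what the length measures. Scripts ran in Python 3.11.15 (pandas 2.3.3, matplotlib 3.10.9).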

Additional observations from a re-analysis of the deposited data

Results flagged for a closer look

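In 4 of the 148 sets of 9 libraries examined for the named genes, a single library lay far from the others. The limit used flags about 1 set in 20 by chance when the 9 values are independent. Libraries of 3 varieties are not, so the number flagged cannot be set against that share. Cyclin-A3-1 (Cs8g04640) was at 0.772 FPKM in Jincheng replicate 3 of peel, and at 0.374 to 0.544 FPKM in the other CO libraries. The cyclin-D-binding Myb-like factor (Cs2g10330) was at 12.3 FPKM in Delta Valencia replicate 3 of pulp, and at 9.73 to 10.9 FPKM in the other VO libraries. SMR9 (Cs2g30340) was at 6.13 FPKM in Jincheng replicate 1 of pulp, and at 4.04 to 4.88 FPKM in the other CO libraries. Histone H2A.1 (Cs4g12200) was at 55.9 FPKM in Delta Valencia replicate 2 of pulp, and at 63.0 to 70.1 FPKM in the other VO libraries.

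In 6 genes the VO minus CO difference in pulp differed from that in peel by the test of the change itself. The pulp difference exceeded the peel difference by 2.71 for KIN-14T, 1.25 for KIN-14K, 1.05 for KIN-7E, 0.997 for SMR3 (Cs7g21700) and 0.713 for KIN-7N on the log2 scale, and for KIN-7H the change was -0.992.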

How the results depend on the processing

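No called difference of a named gene changed sign under any setting, and for pulp against peel the counts stayed within 1.5 times of 30 higher and 60 lower. Under the rule over all 9 variety pairs, which takes libraries as replicates, 0 genes were higher and 1 lower in peel, and 2 were higher and 0 lower in pulp. With libraries as replicates and the replicate number as a block (replicate block), 25 were higher and 25 lower in peel, 31 and 26 in pulp, and 22 and 19 for the change between tissues. Same-numbered libraries did not deviate together (mean correlations of -0.005 between CO and VO in peel, -0.003 in pulp and 0.006 between peel and pulp, none over 0.1 and the lowest -0.13 in pulp). Whether same-numbered libraries share trees is not settled by these correlations. The replicate block fits treat libraries of a variety as independent. With variety as a random effect, 17 were higher and 10 lower in peel and 20 and 14 in pulp. TPM left 3 lower in pulp. For the change between tissues, 2 were higher and 0 lower with no filter, and 3 were higher with a pseudocount of 1. Leaving out a variety or a library number gave 1 to 10 higher and 2 to 5 lower in peel, 4 to 14 and 1 to 8 in pulp, 24 to 30 and 53 to 59 for pulp against peel, and 1 to 7 and 0 to 1 for the change. All 6 single-variety omissions kept 3 of the 15 calls in peel, 5 of 18 in pulp and 1 of 6 for the change, and such fits hold fewer varieties. By gene, size factors lost the peel calls of CDK inhibitor 6, KIN-UA and H1.2. TPM lost H1.2 in peel, KIN-14A, cyclin-D3-1 (Cs3g17490), KINESIN LIGHT CHAIN-RELATED 2 and SMR3 in pulp, and the change of SMR3 between tissues. Limma-voom lost SMR3 in pulp. With no filter 157 genes were tested in peel, 15 higher and 4 lower, so that calls were also made among genes under 0.3 FPKM. Such genes rest on few fragments.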
